A study of Mus musculus with 4 samples.

Results

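Cell cycle and division regulators are the cyclins, cyclin-dependent kinases, division kinases, spindle checkpoint proteins and inhibitors that carry a cell through DNA replication, mitosis and the meiotic divisions. The set holds 41 genes, named by symbol and found by exact match among the 24388 gene symbols of the deposited table. All 41 had a row. They were ordered by role into 5 lists, which hold 10 G1 and S phase cyclins and kinases, 9 genes of the G2/M cyclin-kinase engine, 10 division kinases, passenger complex and separase genes, 7 spindle checkpoint genes and activators of the anaphase-promoting complex (APC/C), and 5 inhibitors.

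Poly(A) RNA was sequenced from testis cell suspensions labelled as spermatocytes, from C57BL/6 mice at 21 dpc, an abbreviation the labels do not spell out. There were 2 libraries labelled control and 2 libraries labelled Np95 knockout. The column headers call the knockout Np95cKO, and neither the deleted part nor what drives the deletion is given in the sources used here. Np95, also named Uhrf1, recruits the maintenance DNA methyltransferase to newly replicated DNA, and the title of the series concerns such methylation in germ cells before meiosis and chromosome pairing in meiotic prophase. The suspension was strained through a mesh with no sorting step described, so other testis cells can be present. Nothing in the labels says whether replicates are different animals, and the spread behind each p-value is that between libraries, possibly technical.

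In the cell cycle, D-type cyclins with Cdk4 and Cdk6, then cyclin E and cyclin A with Cdk2, drive entry into and passage through S phase. Cdk1 with cyclin B then drives entry into division. Wee1 and Pkmyt1 hold Cdk1 inactive and the Cdc25 phosphatases release it. The spindle checkpoint restrains APC/C until chromosomes are attached, and APC/C then removes securin and the cyclins. Male germ cells use several of these proteins in forms of their own. Cyclin A1, encoded by Ccna1, is known from late spermatocytes and is needed for their entry into the meiotic divisions, while cyclin A2, encoded by Ccna2, is known from dividing spermatogonia. Aurkc is a germ cell relative of the passenger complex kinase Aurkb, and cyclin B3, encoded by Ccnb3, is known from early meiotic prophase.

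Values are RPKM, read numbers relative to gene length and to the size of the library. With the whole gene span, introns included, taken as the length, 44.2% to 47.1% of low values per library were whole multiples of a fixed step, where chance gives 10%. That step was found by a search, and the 10% is for a step taken without one. With exon length at the same step the share was 9.96% to 11.4%. No step was searched for exon length, so the 2 shares are not a like comparison. Gene span was taken as the length on the share it gave, so levels of different genes also depend on their intron content. If a step is 1 read pair, the libraries held about 5810000 and 12800000 pairs in control replicates 1 and 2, and about 11110000 and 4810000 in knockout replicates 1 and 2. Steps of 0.5 that size gave whole values more often, at 59.5% to 61.5%, and if these are the reads, every depth and read-pair number given here doubles. Uhrf1 itself was 3.11 and 3.29 RPKM in control replicates 1 and 2, against 1.87 and 1.48 in knockout replicates 1 and 2 (log2 fold change -0.65, SE 0.10, limma adjusted p = 0.0031). A gene was tested if it reached 1 RPKM in at least 2 libraries. Log2 fold changes are knockout minus control on log2(RPKM + 1), which understates the change of low genes, and adjusted p-values are from limma over all 9099 tested genes. Group values are mean RPKM ± SD over 2 libraries.

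Among the 41 genes, 36 were tested. In the knockout 13 rose, 13 fell and 10 were not called. Over all tested genes 43.3% rose and 30.5% fell, 73.8% in all, so a call alone does not set a member apart. The median log2 fold change was -0.14 for the tested members and 0.14 for all tested genes. The median size of the change, regardless of sign, was 0.67 for the members and 0.54 for all tested genes. Mean RPKM was at least 2-fold higher for 8 members, where 24.7% of all tested genes were, and at least 2-fold lower for 5, where 14.4% were. Control and knockout values lay apart in 35 of the 36 members and in 89.9% of all tested genes. The plot of all members by library shows this spread by list.

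**Figure D1:**
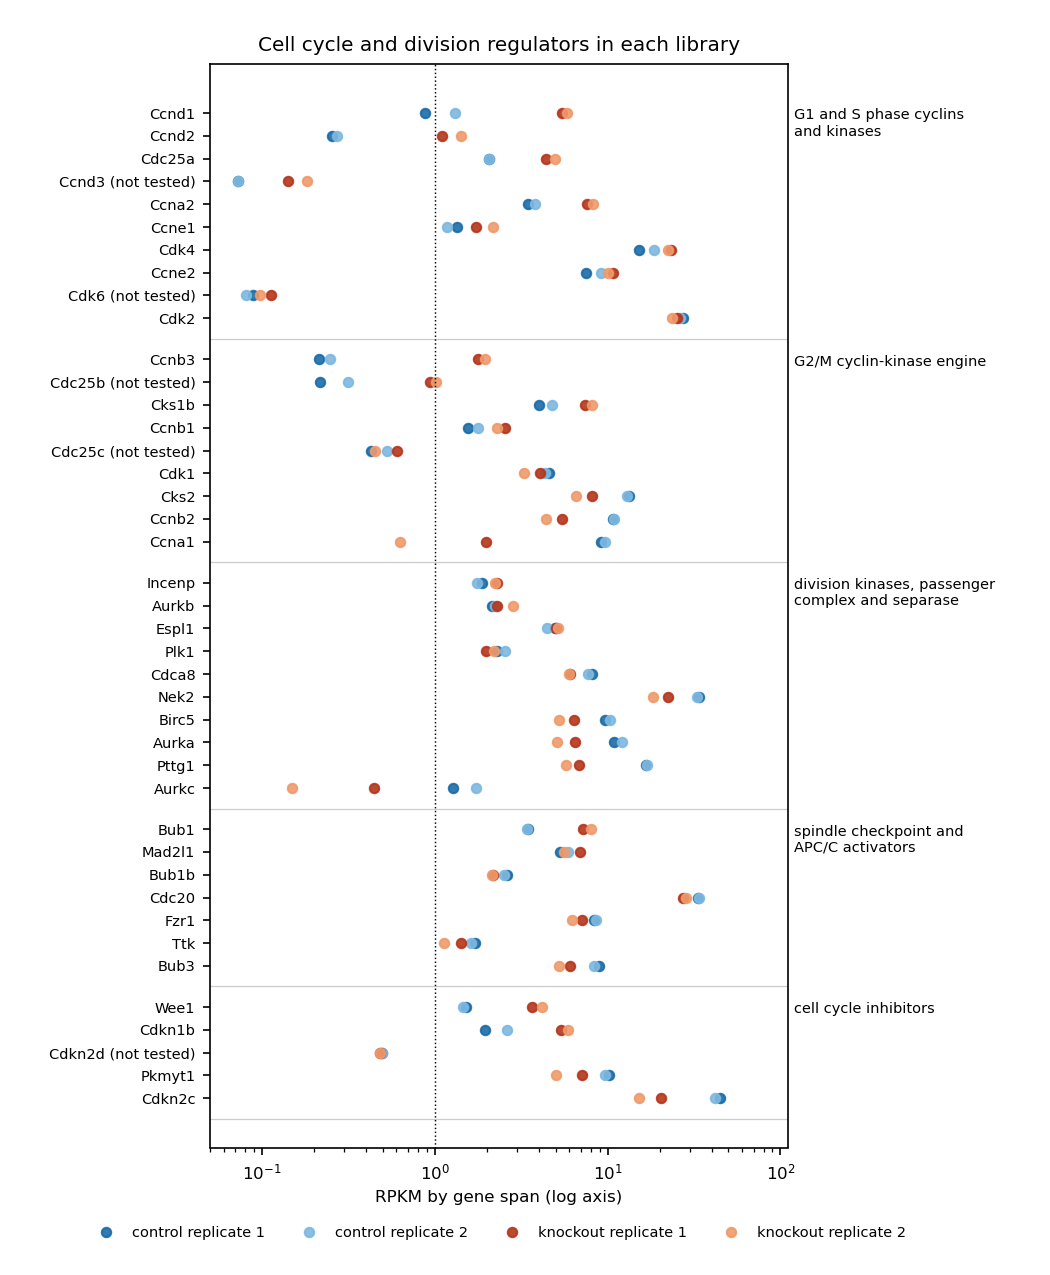
RPKM by gene span of the 41 regulators (x axis, log scale) in each of the 4 libraries (coloured points), in 5 lists from top to bottom and ordered within a list by the ratio of knockout to control. The dotted line marks 1 RPKM. Ccna1 and Aurkc lie far to the left of their control points in the knockout libraries, Ccnd1 and Ccnb3 far to the right, and members such as Cdk2 and Cdkn2d keep their points close together.

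The suspensions also differed in their markers of other cells, and these values stand beside every result below. The summed RPKM of 14 Sertoli cell genes ran from 125 to 149 in the control and from 382 to 480 in the knockout, and all 13 that were tested rose, where 43.3% of all tested genes did. Of the 13, Wt1 and Gata4 lay below 1 RPKM in both control libraries and were tested through the knockout libraries. Fshr, the hormone receptor of Sertoli cells, was too low to be tested. It was 0.0135 and 0.0161 RPKM in the control libraries and 0.0504 and 0.0663 in the knockout libraries. The sum of 8 Leydig cell genes ran from 18.6 to 19.1 and from 52.3 to 60.6, and 5 of 6 tested rose, which became 3 without control replicate 2 or without knockout replicate 2. For 11 peritubular, endothelial and stromal genes the sums ran from 5.58 to 6.50 and from 17.6 to 25.4, with 5 of 5 tested higher. Cyp11a1 of the Leydig list and Pdgfra of the stromal list lay below 1 RPKM in both control libraries. Both rose and were tested through the knockout libraries. For 7 macrophage genes the sums ran from 4.04 to 5.15 and from 9.23 to 12.3, with 4 of 4 tested higher. Of these 4, Cd68 and C1qb were tested through the knockout libraries, and the number called became 1 without knockout replicate 1 and 2 without knockout replicate 2. The most abundant of these marker genes were Aard, Insl3, Col1a1 and C1qa, in the same order of cell types. For 12 dissociation and stress genes, led by Hspb1, the sums ran from 20.9 to 24.8 and from 74.9 to 101, with 10 of 10 tested higher, of which Fos and Dusp1 were tested through the knockout libraries.

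Germ cell marker lists of different stages did not move together. Over all tested genes 43.3% rose and 30.5% fell. The sum of 15 pachytene and later spermatocyte genes, led by the heat shock protein gene Hspa2, ran from 1690 to 1741 in the control and from 657 to 823 in the knockout. Of 12 tested, 11 fell and 1 rose, with a median ratio of knockout to control of 0.372. The gene that rose was Cst9, which is also known from Sertoli cells, and H1fnt was listed at 0 in every library. Calr3, too low to be tested, was 0.127 and 0.143 RPKM in the control libraries and 0.406 and 0.526 in the knockout libraries. Spag6 was also too low to be tested, and its groups overlapped. The sum of 13 spermatid genes, led by Acr, ran from 33.1 to 33.9 and from 10.1 to 14.3, with 4 of 4 tested lower. Acr alone was 20.6 and 21.1 RPKM in the control libraries and 8.30 and 5.81 in the knockout libraries. Of all 13, tested or not, 9 lay lower in both knockout libraries. The groups overlapped for Tnp1, Prm1, Tssk2 and Spaca1, which were too low to be tested. The sum of 13 spermatogonial genes ran from 48.7 to 53.6 and from 49.4 to 51.1 and was dominated by Id4. Of 6 of these tested, 5 rose and Id4 fell. Dmrt1, which rose, lay below 1 RPKM in both control libraries and was tested through the knockout libraries. Neither the part of these cell types nor that of the stress genes in the results below was tested, and in bulk suspensions fewer cells of a type and less RNA per cell cannot be told apart.

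**Figure D2:**
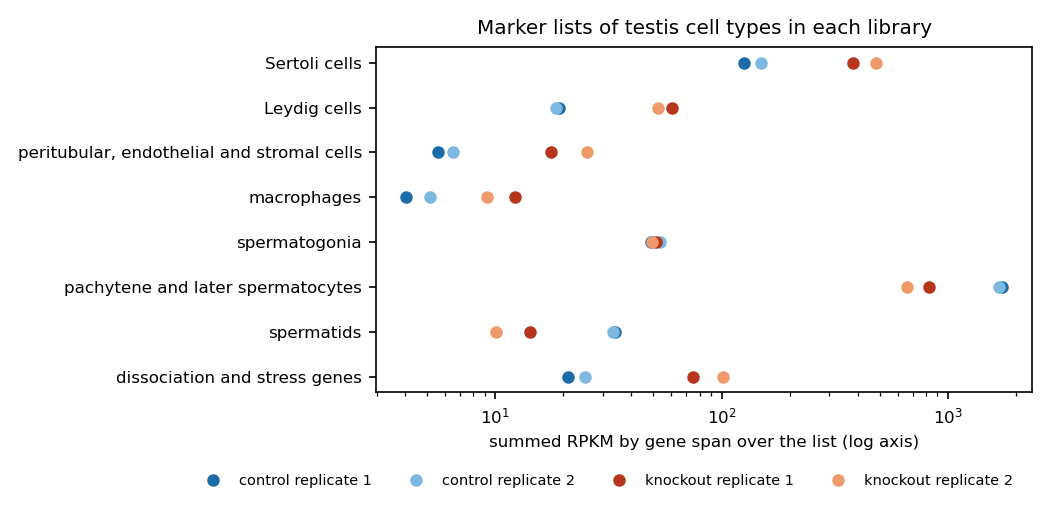
Summed RPKM by gene span (x axis, log scale) of 8 lists of marker genes in each of the 4 libraries (coloured points). Sertoli, Leydig, stromal, macrophage and stress lists lie higher in both knockout libraries, the pachytene and spermatid lists lie lower, and the spermatogonial sums overlap.

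Among the G1 and S phase genes, 6 of 8 tested rose, 0 fell and 2 were not called, with a median log2 fold change of 0.63 beside 0.14 for all tested genes. Over all tested genes 43.3% rose. The 6 became 3 to 5 with 1 library left out, 3 of them without knockout replicate 2, and an equal median gave 4 higher and 1 lower. Ccnd1 encodes cyclin D1, which links growth signals to Cdk4 and Cdk6. It was 0.882 and 1.31 RPKM in control replicates 1 and 2, and 5.46 and 5.84 in knockout replicates 1 and 2. Both knockout libraries were well above both control libraries and the mean was 5.15-fold higher (log2 fold change 1.67, SE 0.12, limma adjusted p = 0.0014). Ccnd2 encodes cyclin D2, which is known from spermatogonia and from dividing Sertoli cells. Its values were 0.255 and 0.272 RPKM in the control libraries and 1.10 and 1.42 in the knockout libraries, 4.78-fold higher (log2 fold change 0.83, SE 0.09, limma adjusted p = 0.0016). It lay below 1 RPKM in both control libraries and was tested only because the knockout libraries passed.

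Ccna2, for cyclin A2, was 3.46 and 3.81 RPKM in the control libraries and 7.56 and 8.28 in the knockout libraries. The groups lay apart, with a 2.18-fold higher mean in the knockout (log2 fold change 0.94, SE 0.09, limma adjusted p = 0.0014). Cdc25a encodes the phosphatase that activates Cdk2 at the start of S phase. It was 2.05 and 2.07 RPKM in the control libraries and 4.40 and 4.97 in the knockout libraries, 2.27-fold higher (log2 fold change 0.89, SE 0.08, limma adjusted p = 0.0014). For Ccnd1, Ccna2 and Cdc25a the calls held under every alternative in which they were tested.

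Cdk4 rose from 16.9 ± 2.41 to 22.8 ± 0.487 RPKM, 1.35-fold, and Ccne1, for cyclin E1, from 1.26 ± 0.129 to 1.95 ± 0.305, 1.55-fold. Their limma adjusted p-values were 0.030 and 0.021, and both calls ended with libraries centred on an equal median (adjusted p = 0.16 and 0.14). The Cdk4 call also ended without control replicate 1 (0.22), without knockout replicate 1 (0.072) and without knockout replicate 2 (0.061). The Ccne1 call ended without control replicate 1 (0.059), without control replicate 2 (0.13), without knockout replicate 2 (0.059) and with quantile normalization (0.29). Ccne2, for cyclin E2, was 8.32 ± 1.15 and 10.4 ± 0.439 RPKM and was not called (limma adjusted p = 0.067), though it was called higher at an equal RPKM sum (0.0026) and with quantile normalization (0.025).

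Cdk2 stood among the abundant members and was not called. It was 27.4 and 26.4 RPKM in the control libraries and 25.3 and 23.5 in the knockout libraries (log2 fold change -0.14, SE 0.10, limma adjusted p = 0.26). The scaling set its call. It was called higher when every library was given the same RPKM sum (log2 fold change 0.26, adjusted p = 0.048) and with quantile normalization (0.33, adjusted p = 0.033), and lower with an equal median (-0.33, adjusted p = 0.040). Ccnd3, for cyclin D3, and Cdk6, the partner of D-type cyclins, were not tested. Ccnd3 was 0.0727 and 0.0725 RPKM in the control libraries and 0.142 and 0.181 in the knockout libraries. Cdk6 was between 0.0812 and 0.0882 RPKM in the control and between 0.0968 and 0.113 in the knockout. Both genes have long introns, which lowers a value that is scaled by gene span.

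The kit does not mark strand, so reads of overlapping antisense genes cannot be told apart. In GENCODE M21, 17 of the 41 members share exon bases with another gene, and 6 share over 10% of them, counting all their annotated exons. Genes that lie only in the introns of a member were not counted. For Ccnd1 the partner is Oraov1 (23.4% of exon bases), which stayed between 4.12 and 4.77 RPKM in all 4 libraries. For Ccna2 it is Exosc9 (12.5%), which lay between 3.98 and 4.12 in the control and between 4.40 and 4.53 in the knockout. Tspan31, which overlaps Cdk4, ran from 2.94 to 3.58 and from 4.98 to 5.86, and Ints8, which overlaps Ccne2, from 2.11 to 2.46 and from 3.55 to 3.60. The other members over 10% are Ccna1, given below, and Cdc25c, which shares 12.7% of its exon bases with Gm3550. How many reads of each partner were counted for these members was not tested.

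The G2/M engine split by gene. Of 7 tested, 3 rose, 3 fell and 1 was not called, with a median log2 fold change of -0.24. Among all tested genes 43.3% rose and 30.5% fell. Ccna1 had the lowest log2 fold change of the 36 tested members. Its RPKM was 9.12 and 9.61 in control replicates 1 and 2, and 1.99 and 0.629 in knockout replicates 1 and 2. Both knockout libraries were far below both control libraries, and the knockout libraries also differed from each other. The mean was 7.16-fold lower (log2 fold change -2.23, SE 0.29, limma adjusted p = 0.0020). Without knockout replicate 2 the log2 fold change was -1.79. The value of 0.629 rests on about 37 read pairs, and that of 1.99 on about 269. The antisense gene 4931419H13Rik shares 10.1% of the exon bases of Ccna1, and it was between 1.04 and 1.24 RPKM in the control and between 0.600 and 0.671 in the knockout.

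Ccnb2, for cyclin B2, was 10.7 and 10.9 RPKM in the control libraries and 5.45 and 4.42 in the knockout libraries. The knockout mean was 2.19-fold lower (log2 fold change -0.996, SE 0.11, limma adjusted p = 0.0016). Cks2 encodes a small subunit of cyclin-dependent kinases that is needed in meiosis. It was 13.2 and 12.9 RPKM in the control libraries and 8.10 and 6.52 in the knockout libraries, 1.79-fold lower (log2 fold change -0.76, SE 0.12, limma adjusted p = 0.0034). Its relative Cks1b moved the other way, from 4.03 and 4.79 RPKM in the control libraries to 7.36 and 8.15 in the knockout libraries. That was 1.76-fold higher (log2 fold change 0.70, SE 0.11, limma adjusted p = 0.0034), and in each gene both groups lay apart.

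Ccnb3, on chromosome X, was 0.212 and 0.248 RPKM in the control libraries and 1.77 and 1.94 in the knockout libraries. The mean was 8.06-fold higher (log2 fold change 1.21, SE 0.07, limma adjusted p = 0.0014), the highest ratio of the 41 members. It lay below 1 RPKM in both control libraries, with about 77 and 197 read pairs, and was tested through the knockout libraries. Ccnb1, for cyclin B1, was 1.55 and 1.79 RPKM in the control libraries and 2.56 and 2.30 in the knockout libraries, 1.46-fold higher (log2 fold change 0.36, SE 0.09, limma adjusted p = 0.015). That call ended without control replicate 1 (adjusted p = 0.12), with an equal median (0.14) and with quantile normalization (0.26). Reads of a Ccnb1 or Ccnb2 pseudogene may also be counted with these genes, since 1 pseudogene is named after each.

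Cdk1 was not called although its groups did not overlap. It was 4.60 and 4.37 RPKM in the control libraries and 4.07 and 3.27 in the knockout libraries (log2 fold change -0.24, SE 0.11, limma adjusted p = 0.10). It was called lower with an equal median (-0.43, adjusted p = 0.023) and without knockout replicate 1 (-0.36, adjusted p = 0.019), and its direction turned with an equal RPKM sum (0.10). The phosphatase genes Cdc25b and Cdc25c, whose products activate Cdk1, were not tested. Cdc25b was 0.215 and 0.314 RPKM in the control libraries and 0.944 and 1.02 in the knockout libraries, so the groups lay apart. Without the filter on low values it was called higher (log2 fold change 0.65, limma adjusted p = 0.010). Cdc25c was 0.430 and 0.532 RPKM in the control libraries and 0.606 and 0.451 in the knockout libraries, which overlap.

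The promoters of 5 of these genes are shown because Np95 acts at CG dinucleotides, and because these genes hold the 2 lowest ratios of knockout to control mean RPKM among the members (Ccna1 and Aurkc) and the B-type cyclins, which moved in both directions. Each is the run of 250 bases before the RefSeq start in build GRCm38.p6, 5′ to 3′ on the gene's strand, with CG in capitals. The windows are chr3:55055056-55055305 on the minus strand for Ccna1, chr7:6995135-6995384 on the plus strand for Aurkc, chr9:70421555-70421804 on the minus strand for Ccnb2, chr13:100786487-100786736 on the minus strand for Ccnb1 and chrX:7041620-7041869 on the minus strand for Ccnb3. RefSeq promoters were matched for 32 of the 41 members. Those without a match were Ccnd1, Ccnd2, Ccna2, Wee1 and Incenp, which rose, and Pkmyt1, which fell. Ccne2 and Aurkb, which were not called, and Cdc25c, which was not tested, also had no match.
Ccna1: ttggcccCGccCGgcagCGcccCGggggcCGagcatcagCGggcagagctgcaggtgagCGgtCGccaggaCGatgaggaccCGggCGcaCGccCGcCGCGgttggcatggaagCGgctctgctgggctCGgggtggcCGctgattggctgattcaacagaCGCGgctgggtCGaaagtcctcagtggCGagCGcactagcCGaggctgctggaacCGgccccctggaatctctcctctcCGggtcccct
Aurkc: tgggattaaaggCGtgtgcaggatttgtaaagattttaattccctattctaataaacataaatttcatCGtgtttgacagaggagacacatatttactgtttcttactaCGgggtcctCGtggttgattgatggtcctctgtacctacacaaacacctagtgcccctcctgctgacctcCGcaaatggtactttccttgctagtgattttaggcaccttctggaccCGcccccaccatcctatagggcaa
Ccnb2: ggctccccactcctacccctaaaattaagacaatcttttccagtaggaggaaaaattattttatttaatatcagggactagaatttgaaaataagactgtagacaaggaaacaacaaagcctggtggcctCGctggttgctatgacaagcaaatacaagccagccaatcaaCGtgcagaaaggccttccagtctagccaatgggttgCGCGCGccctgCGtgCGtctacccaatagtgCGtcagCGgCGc
Ccnb1: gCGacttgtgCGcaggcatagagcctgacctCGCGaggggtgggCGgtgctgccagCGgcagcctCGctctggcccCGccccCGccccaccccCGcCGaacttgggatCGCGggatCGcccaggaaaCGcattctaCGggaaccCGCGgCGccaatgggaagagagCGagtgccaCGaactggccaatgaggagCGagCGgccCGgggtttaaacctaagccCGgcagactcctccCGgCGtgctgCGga
Ccnb3: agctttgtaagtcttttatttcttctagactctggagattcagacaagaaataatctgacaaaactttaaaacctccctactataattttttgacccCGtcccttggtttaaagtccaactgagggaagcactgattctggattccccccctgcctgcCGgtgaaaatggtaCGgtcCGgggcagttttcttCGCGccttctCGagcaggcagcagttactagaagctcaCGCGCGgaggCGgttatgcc
Ccna1 and Ccnb1 have 26 and 28 CG in these windows. Ccnb2 and Ccnb3 have 10 and 11, and Aurkc has 6. The median was 18 CG over the 32 members and 6 over all 27025 genes with a promoter in the table. Methylation was not measured in these libraries, so the counts describe sequence only. A link between the number of CG and the direction of change was not tested.

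Known promoter elements of division genes were searched on both strands of the same windows. CCAAT, the box bound by NF-Y, was present in 22 of the 32 members and in 34.5% of all promoters. It was found in 5 of 8 members that rose, in 8 of 12 that fell and in 7 of 8 that were not called. The windows cover 8 of the 13 members that rose and 12 of the 13 that fell. TTTGAA, a form of the cell cycle homology region, was present in 6 of 32 members (Bub3, Ccnb2, Cdc20, Cdk1, Cks1b and Espl1) and in 16.3% of all promoters. TTTCCCGC or TTTGGCGC, forms of the E2F site, were present in Cdc25a and Cdk2 and in 1.35% of all promoters. TAACGG, a core of the MYB site, was present in Nek2 and in 2.17% of all promoters. A match describes letters, not a bound site, and no motif in this search contains another.

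Among the division kinases, passenger complex and separase genes, 6 of 10 fell, 1 rose and 3 were not called. Their median log2 fold change was -0.52. The shares over all tested genes were 30.5% lower and 43.3% higher. Pttg1 encodes securin, the inhibitor of separase. It was 16.7 and 16.9 RPKM in the control libraries and 6.85 and 5.76 in the knockout libraries, so the control libraries agreed closely and both knockout libraries were lower. The mean was 2.67-fold lower (log2 fold change -1.29, SE 0.11, limma adjusted p = 0.0014). Espl1, for separase itself, was 4.71 ± 0.340 and 5.07 ± 0.0952 RPKM and was not called (log2 fold change 0.09, limma adjusted p = 0.39).

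Aurkc was 1.28 and 1.73 RPKM in the control libraries and 0.443 and 0.148 in the knockout libraries. The mean was 5.09-fold lower (log2 fold change -0.96, SE 0.15, limma adjusted p = 0.0035). It lay below 1 RPKM in both knockout libraries, so it was tested through the control libraries, and the lowest value rests on about 6 read pairs. Aurka, the kinase of spindle poles, was 10.9 and 12.1 RPKM in the control libraries and 6.50 and 5.13 in the knockout libraries, 1.98-fold lower (log2 fold change -0.88, SE 0.13, limma adjusted p = 0.0029). Aurkb was 2.19 ± 0.0792 and 2.57 ± 0.395 RPKM and was not called (log2 fold change 0.16, limma adjusted p = 0.21). Its direction turned with an equal median (-0.03) and with quantile normalization (-0.06), and it was called higher without knockout replicate 1 (0.27, adjusted p = 0.037) and at an equal RPKM sum (0.45, adjusted p = 0.015).

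Nek2 encodes a centrosome kinase that is abundant in spermatocytes. It was 34.0 and 33.0 RPKM in the control libraries and 22.5 and 18.3 in the knockout libraries, 1.65-fold lower (log2 fold change -0.70, SE 0.13, limma adjusted p = 0.0060). That call was lost with quantile normalization (adjusted p = 0.14), and likewise at an equal RPKM sum (0.063). Birc5 and Cdca8, which encode survivin and borealin of the passenger complex, fell 1.72-fold and 1.32-fold, from 10.003 ± 0.424 to 5.83 ± 0.796 RPKM and from 7.92 ± 0.252 to 5.99 ± 0.0448. Incenp, the scaffold of the same complex, rose 1.25-fold, from 1.81 ± 0.0879 to 2.26 ± 0.0245 RPKM. The limma adjusted p-values were 0.0038 for Birc5, 0.012 for Cdca8 and 0.043 for Incenp. The call of Cdca8 ended and its direction turned with an equal RPKM sum (log2 fold change 0.01), and the call ended without control replicate 1 (adjusted p = 0.12) and without control replicate 2 (0.078). The call of Incenp ended without any single library (adjusted p = 0.068 to 0.28), with the replicate block (0.064), without the filter (0.052) and with an equal median (0.78). Its direction turned with quantile normalization (log2 fold change -0.02). Plk1, the kinase of mitotic entry and spindle assembly, was 2.42 ± 0.193 and 2.09 ± 0.163 RPKM and was not called (limma adjusted p = 0.18).

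Of the 7 spindle checkpoint and activator genes 1 rose, 2 fell and 4 passed in neither direction. Among all tested genes 43.3% rose and 30.5% fell. The 7 had a median log2 fold change of -0.23. The number that fell was 0 without control replicate 1, 1 without control replicate 2, 4 without knockout replicate 1, 0 with an equal RPKM sum and 5 with an equal median. Bub1 encodes the kinase that places checkpoint proteins and shugoshin at kinetochores. It was 3.45 and 3.40 RPKM in the control libraries and 7.18 and 8.01 in the knockout libraries, 2.22-fold higher (log2 fold change 0.96, SE 0.09, limma adjusted p = 0.0014). Bub3, its binding partner, was 8.94 and 8.34 RPKM in the control libraries and 6.10 and 5.24 in the knockout libraries. That was 1.52-fold lower (log2 fold change -0.53, SE 0.10, limma adjusted p = 0.0064), and the call was lost without control replicate 1 (adjusted p = 0.053) and at an equal RPKM sum (0.17). Bub1b, for the related checkpoint protein BubR1, was 2.58 ± 0.0710 and 2.16 ± 0.0130 RPKM and was not called (limma adjusted p = 0.069). It was called lower with an equal median (adjusted p = 0.0075) and with quantile normalization (0.0070). Its direction turned with an equal RPKM sum (log2 fold change 0.11).

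The APC/C activators Cdc20 and Fzr1 were at 33.6 ± 0.518 and 8.43 ± 0.151 RPKM in the control, and at 27.9 ± 0.990 and 6.63 ± 0.628 in the knockout. Fzr1 fell 1.27-fold (limma adjusted p = 0.034), and Cdc20 was not called (0.061). Cdc20 was called lower with an equal median (adjusted p = 0.011) and after leaving out either knockout replicate 1 (0.048) or knockout replicate 2 (0.026). Without the mean-variance trend Cdc20 was also called lower (limma adjusted p = 0.030). Its direction turned at an equal RPKM sum (log2 fold change 0.15) and under quantile normalization (0.23). The direction of Fzr1 turned with an equal RPKM sum (log2 fold change 0.06). Its call ended with quantile normalization (adjusted p = 0.085), without control replicate 1 (0.15), without control replicate 2 (0.18) and without knockout replicate 2 (0.063). Ttk, the kinase that starts checkpoint signalling, was 1.66 ± 0.0558 and 1.28 ± 0.205 RPKM and was not called (limma adjusted p = 0.073). With quantile normalization Ttk was called lower (log2 fold change -0.49, limma adjusted p = 0.011). It was called lower without knockout replicate 1 (adjusted p = 0.022) and with an equal median (0.013). Mad2l1, the protein that binds Cdc20 when the checkpoint is active, was 5.63 ± 0.419 and 6.25 ± 0.943 RPKM and was the only tested member whose groups overlapped.

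Of the inhibitors, 4 of 5 were tested, of which 2 rose and 2 fell. The shares over all tested genes were 43.3% higher and 30.5% lower. Cdkn1b encodes p27, an inhibitor of Cdk2 complexes that is prominent in Sertoli cells once they stop dividing. It was 1.96 and 2.62 RPKM in the control libraries and 5.36 and 5.88 in the knockout libraries, 2.46-fold higher (log2 fold change 1.02, SE 0.12, limma adjusted p = 0.0018). Wee1 encodes the nuclear kinase that holds Cdk1 inactive. It was 1.52 and 1.45 RPKM in the control libraries and 3.64 and 4.15 in the knockout libraries, 2.62-fold higher (log2 fold change 0.98, SE 0.09, limma adjusted p = 0.0014). Both knockout libraries were above both control libraries in each gene.

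Cdkn2c encodes p18, an INK4 inhibitor of Cdk4 and Cdk6 that is known from spermatocytes. It was 44.6 and 41.8 RPKM in the control libraries and 20.3 and 15.2 in the knockout libraries, 2.43-fold lower (log2 fold change -1.25, SE 0.16, limma adjusted p = 0.0020). Pkmyt1 encodes the membrane-bound relative of Wee1. It was 10.1 and 9.69 RPKM in the control libraries and 7.08 and 5.02 in the knockout libraries, 1.64-fold lower (log2 fold change -0.65, SE 0.16, limma adjusted p = 0.015). Its call was lost without control replicate 1 (adjusted p = 0.064) and at an equal RPKM sum (0.13). Cdkn2d, for the INK4 inhibitor p19, was not tested and had 0.493 and 0.493 RPKM in the control libraries and 0.482 and 0.483 in the knockout libraries. Those values rest on about 7 to 19 read pairs per library, so they are less precise than their closeness shows.

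The size of these changes depends on how libraries are scaled to each other. The summed RPKM was lower in the knockout libraries, and over all tested genes the median log2 fold change moved from 0.14 to 0.46 with an equal RPKM sum, to -0.05 with an equal median and to 0.01 with quantile normalization. Members called higher and lower numbered 19 and 8 with an equal RPKM sum, against 13 and 13 in the main fit. They numbered 9 and 19 with an equal median, and 12 and 14 with quantile normalization. Of the 13 members that rose, 9 held their call and direction under all 3 scalings (Ccnd1, Ccnd2, Ccna2, Cdc25a, Ccnb3, Cks1b, Bub1, Wee1 and Cdkn1b). Of the 13 that fell, 8 did (Ccna1, Ccnb2, Cks2, Aurka, Aurkc, Birc5, Pttg1 and Cdkn2c). The same 17 held under each alternative in which they were tested. Ccnd2, Ccnb3 and Aurkc were tested in 2 of the 4 fits that left out a library and the other 14 in all 4. Of the 10 members not called, 0 kept both their direction and their lack of a call under all 3 scalings. Plk1 was called lower with an equal median (adjusted p = 0.015) and with quantile normalization (0.012). Espl1 and Mad2l1 were called higher with an equal RPKM sum (0.0087 and 0.010).

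**Figure D3:**
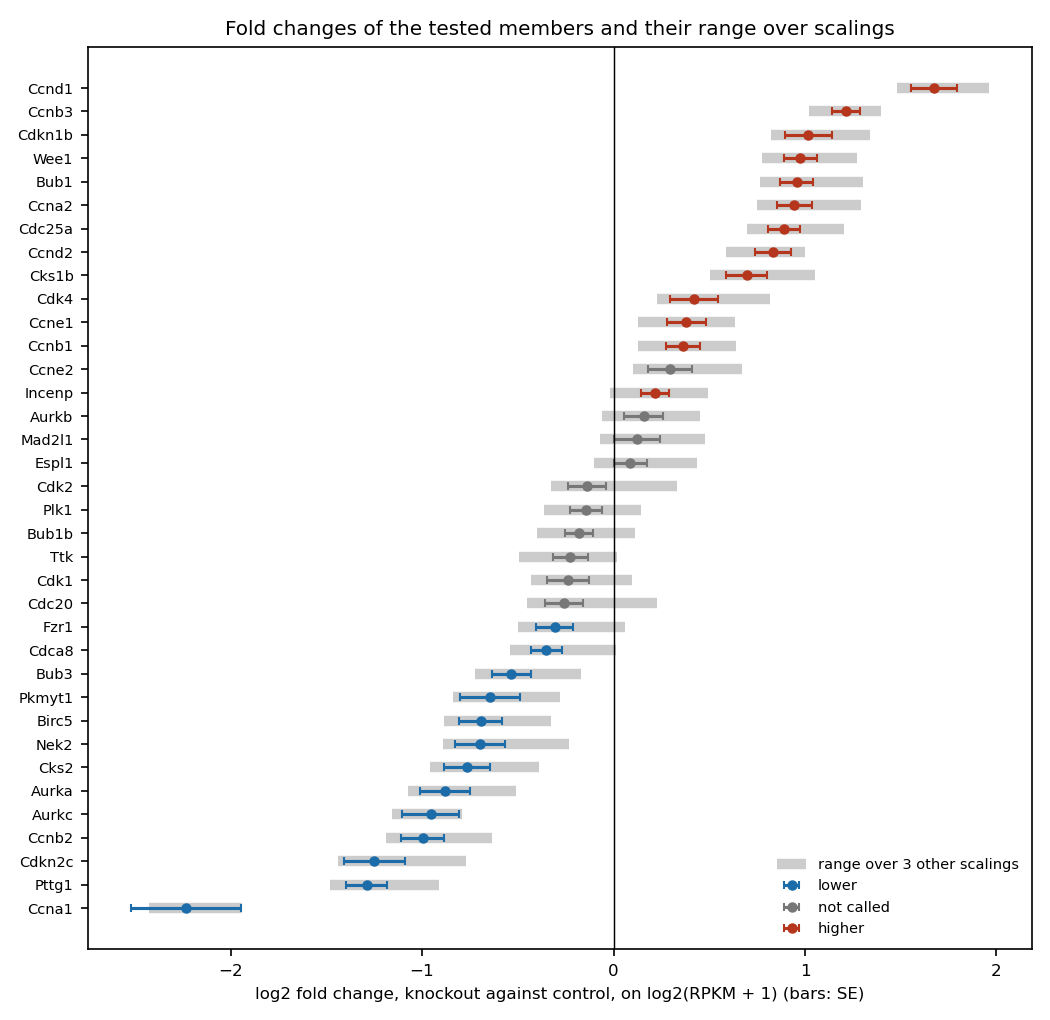
Log2 fold change of the 36 tested regulators on log2(RPKM + 1), knockout against control (x axis), with SE bars and coloured by call. Grey bars span the values under 3 other scalings between libraries. They cross 0 for the members near the middle, Incenp to Cdca8, and stay on 1 side of it for the members at both ends.

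Ratios between related members within a library are unchanged by a scaling that applies 1 factor to a whole library, as the equal sum and the equal median do, but not by quantile normalization. They were taken for 14 pairs, as log2 of the RPKM of the first gene over that of the second. An exact permutation test of 2 against 2 libraries, two-sided, cannot go below p = 0.333, raw or adjusted over the 14 pairs, so none of these differences can pass a threshold. For 11 of the 14 pairs the groups did not overlap. Taken singly, 89.9% of all tested genes did not overlap either, and the share among other pairs of genes was not computed. The log2 ratio of Ccna1 to Ccna2 was 1.40 and 1.33 in the control libraries and -1.93 and -3.72 in the knockout libraries, a shift of -4.19. The 2 genes therefore changed places, with Ccna1 above Ccna2 in both control libraries and below it in both knockout libraries.

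The ratio of Aurkc to Aurkb was -0.74 and -0.37 in the control libraries and -2.37 and -4.26 in the knockout libraries. The ratio of Ccnb3 to Ccnb1 was -2.87 and -2.85 in the control libraries and -0.54 and -0.24 in the knockout libraries. The ratio of Ccnb1 to Ccnb2 was -2.79 and -2.60 in the control libraries and -1.09 and -0.94 in the knockout libraries. Each of these shifts was larger than the distance between libraries of a group. Ccna1 and Aurkc thus lost ground to their relatives in both knockout libraries, and Ccnb3 gained ground.

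Pkmyt1 to Wee1 was 2.74 and 2.74 in the control libraries and 0.96 and 0.28 in the knockout libraries. Cks2 to Cks1b was 1.72 and 1.43 in the control libraries and 0.14 and -0.32 in the knockout libraries. Bub1b to Bub1 was -0.39 and -0.42 in the control libraries and -1.73 and -1.90 in the knockout libraries. In each of these pairs the second gene gained on the first in both knockout libraries. Cdc25c lost ground to Cdc25b by 1.79, while Cdkn2d gained on Cdkn2c by 1.26 and Ccnd2 on Ccnd3 by 1.10. Cdk1 to Cdk2 differed by only -0.16, and the groups overlapped for Ccne1 to Ccne2, Cdk6 to Cdk4 and Cdc20 to Fzr1.

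**Figure D4:**
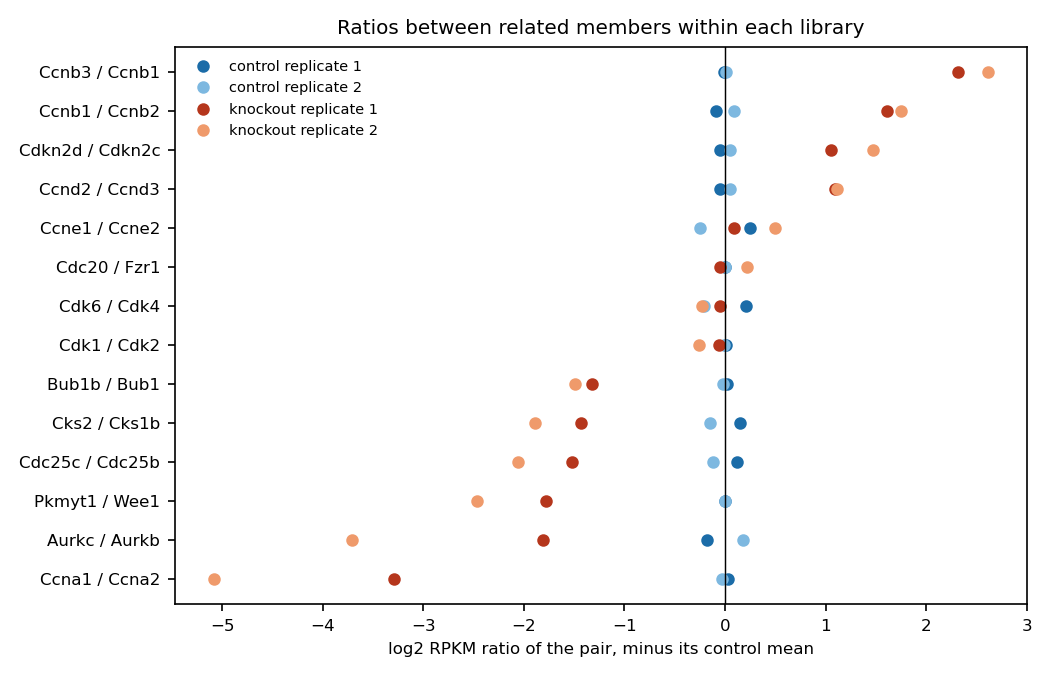
Log2 RPKM ratio of 14 pairs of related regulators in each library, minus the control mean of the pair (x axis), with 1 point per library. The control points stay within 0.25 of 0, while both knockout points of Ccna1 to Ccna2 lie beyond -3 and those of Ccnb3 to Ccnb1 beyond 2.

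To compare levels between genes, RPKM was multiplied by gene span and divided by the length of the longest principal transcript in GENCODE M21, which gives the level per kilobase of transcript. On that scale the highest group means in the control were Pttg1 (128), Nek2 (121), Cdkn2c (103), Cks2 (102.5) and Ccnb2 (97.8). In the knockout they were Cdk2 (77.5), Nek2 (73.3), Bub1 (70.3), Cdc20 (69.2) and Cdca8 (68.0). Bub1 moved from rank 15 to rank 3 of 41 and Ccnb3 from rank 35 to rank 18, while Ccna1 moved from rank 11 to rank 30 and Aurkc from rank 26 to rank 39. Cdk2 was at rank 8 in the control, at a level of 85.4. These levels also count any intronic reads and depend on the transcript chosen, so close ranks are not an order.

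Beyond the 41 members, 84 other genes of the pathway were listed by role and 63 were tested, of which 32 rose, 12 fell and 19 were not called. Over all tested genes 43.3% rose and 30.5% fell, and the counts of each list below stand against the same shares. Their median log2 fold change was 0.21, beside 0.14 for all tested genes. Among APC/C subunits and their partners 8 of 15 rose and 4 fell, and the 8 became 5 without control replicate 2 or without knockout replicate 2. The Emi inhibitors of APC/C stood in this list and moved apart. Fbxo5, for Emi1, went from 0.841 ± 0.0803 to 3.15 ± 0.387 RPKM (log2 fold change 1.17, limma adjusted p = 0.0014). Fbxo43, for Emi2, went from 6.25 ± 0.285 to 2.78 ± 0.515 RPKM (log2 fold change -0.94, limma adjusted p = 0.0019). Anapc5 rose 2.27-fold, and Anapc11, the catalytic subunit of APC/C, fell from 15.4 ± 0.233 to 8.66 ± 0.107 RPKM. Fbxo5 lay below 1 RPKM in both control libraries.

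Among Rb, E2F and SCF regulators 5 of 9 tested rose and 1 fell, and with 1 library left out 2 or 3 rose and 0 fell. E2f1, a transcription factor of S phase genes, rose 4.34-fold and E2f5 2.60-fold, both from below 1 RPKM in both control libraries, and E2f8 fell from 1.16 ± 0.152 to 0.815 ± 0.0323 RPKM (limma adjusted p = 0.039). E2f6 also rose from below 1 RPKM in both control libraries, so E2f1, E2f5 and E2f6 were tested through the knockout libraries. E2f8 lay below 1 RPKM in both knockout libraries. Its call was lost without the filter (adjusted p = 0.074), with the replicate block and at an equal RPKM sum, where 0 genes of the list were called lower. The 3 inhibitors tested outside the members rose, of which Cdkn1a, for p21, lay below 1 RPKM in both control libraries and was tested through the knockout libraries. Cdkn1c, for p57, rose 2.46-fold and Cdkn2b, for p15, 2.91-fold. Cdkn1c and Cdkn2b are also known from somatic testis cells. Markers of such cells were higher in the same libraries, and the part of those cells in these rises was not tested.

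Of 18 kinetochore and centromere genes tested, 7 rose and 4 fell. The 4 became 1 without control replicate 1, without control replicate 2 or at an equal RPKM sum, and 2 without knockout replicate 2, with the replicate block or without the filter. The 7 that rose became 13 with an equal RPKM sum, 5 with an equal median and 4 with quantile normalization. Cenpe and Casc5, which rose, lay below 1 RPKM in both control libraries and were tested through the knockout libraries. Cenpc1, which fell, lay below 1 RPKM in both knockout libraries and was tested through the control libraries. Cenpa, the centromeric histone, rose 2.41-fold and Cenpf 2.32-fold. Nuf2, of the microtubule-binding complex, fell from 4.93 ± 0.180 to 2.53 ± 0.675 RPKM and Dsn1 from 8.37 ± 0.207 to 6.47 ± 0.580. Of 18 genes of mitotic entry, exit and cytokinesis tested, 9 rose and 3 fell, and the 9 became 5 without control replicate 1 and 4 without control replicate 2. The scaling also set the balance of this list. With an equal RPKM sum 14 rose and 1 fell, with an equal median 5 rose and 5 fell, and with quantile normalization 6 fell. Mki67, the antigen of proliferating cells, rose from 2.52 ± 0.0846 to 8.49 ± 1.001 RPKM, 3.37-fold, and the cytokinesis kinesin gene Kif23 2.79-fold. Gsg2, for the histone kinase haspin, was the most abundant gene of that list by RPKM and fell from 149 ± 7.45 to 44.7 ± 14.7 RPKM (log2 fold change -1.75, SE 0.24, limma adjusted p = 0.0024). Prc1, of the central spindle, fell from 7.71 ± 0.326 to 5.08 ± 0.324 RPKM.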

How the data were processed

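The deposited table gives RPKM per gene symbol for 4 libraries (2 control, 2 Np95 knockout). Per the labels' protocols, the authors made unstranded poly(A) libraries and sequenced 50-base pairs. Per the submitters' processing notes they used Bowtie2 and mm9, with the version, counter and annotation not given in the sources used here. Of 24444 rows, 27 whose symbol had become a date and 29 repeats of a symbol were dropped. Genes that reached 1 RPKM in 2 or more libraries were fitted with limma 3.58.1 (R 4.3.3) on log2(RPKM + 1), with a mean-variance trend, Benjamini-Hochberg adjustment over 9099 genes and a threshold of 0.05. The script was tested on simulated data. Exact permutation tests served single ratios. Read pairs were estimated from steps in low values. At those steps 44.2% to 47.1% of low values were whole within 0.05 of a step. Chance gives 10.0% for a step taken without a search. No count test was therefore run, and depths are approximate. Lengths and overlaps came from GENCODE M21 and promoters from RefSeq, both on GRCm38, used for no coordinates of the table. Every member is described. For the other pathway lists the 2 called genes with the smallest p in each direction are named. The members and lists were chosen with earlier results of these data known. Alternatives covered the pseudocount, the filter, scaling between libraries, the trend, the replicate block, repeated symbols and leaving out each library.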

Additional observations from a re-analysis of the deposited data

How the results depend on the processing

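Over all genes, 3943 rose and 2776 fell, against 5657 and 1663 with an equal RPKM sum, 3045 and 3538 with an equal median, and 3157 and 3042 with quantile normalization. Without a filter 7370 rose, and at 5 RPKM or more 1080 rose and 1629 fell. Leaving out 1 library gave 2321 to 3115 higher and 1756 to 2871 lower. Members called higher numbered 6 at 5 RPKM or more and 8 to 11 with 1 library left out. Members called lower numbered 8 with an equal RPKM sum and 8 to 16 with 1 library left out. Of the pathway genes, 10 rose and 7 fell at 5 RPKM or more, 49 and 5 did with an equal RPKM sum, and 20 to 24 and 6 to 10 with 1 library left out.

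The log2 fold change turned with an equal RPKM sum for Cdk2 (0.26), Cdk1 (0.10), Plk1 (0.15), Cdca8 (0.013), Bub1b (0.11), Ttk (0.021), Cdc20 (0.15) and Fzr1 (0.060). It turned with an equal median for Aurkb (-0.034), Espl1 (-0.10) and Mad2l1 (-0.068), and with quantile normalization for Cdk2 (0.33), Aurkb (-0.059), Incenp (-0.018) and Cdc20 (0.23). With 1 library left out, Mad2l1 ran from -0.0092 to 0.257, the log2 ratio change of Cdk6 to Cdk4 from -0.341 to 0.070 and that of Cdc20 to Fzr1 from -0.051 to 0.215. A group left with 1 library was assumed to vary like the other group. The cause of these changes was not tested. With the replicate block 12 members rose and 13 fell, and 3868 and 2721 of all genes did. Same-numbered libraries deviated together with a correlation of 0.11 over 9099 genes, but 2 pairs do not show that the numbers pair the samples. With about 4810000 pairs in the shallowest library, values under 1 RPKM are the least certain.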
